A study of Homo sapiens with 2 samples.

Results

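The genes described here are the subunits of the transcription factor NF-kB and the proteins that hold it in check, in A4573 cells, an established Ewing sarcoma line, after adaptation to radiation. Ewing sarcoma is a cancer of bone and soft tissue whose driver is a fusion transcription factor. The members were chosen by symbol, as the probes whose gene on the array platform is NFKB1, NFKB2, REL, RELA, RELB, NFKBIA, NFKBIB, NFKBIE, BCL3 or TNFAIP3. All 10 genes had a probe, 14 probes of 47323 on the array and 10 genes of 20046 named. The groups are the radiation-adapted A4573 culture, which carries the label 4 Gy, and the wild-type A4573 culture. The labels give no irradiation schedule, no time since the last dose and no statement on whether the adapted cells were cloned. Each culture gave total RNA for 1 Illumina bead array, so no difference here has a replicate check, and no test between cultures was run. The genes were selected with the values of this same pair of arrays known, so their differences are a description.

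NF-kB is a dimer built from 5 subunits. RELA, RELB and REL carry a domain that activates transcription, whereas NFKB1 and NFKB2 are made as precursors that are processed to shorter DNA-binding forms and, unprocessed, retain dimers in the cytoplasm. IkB proteins bind the dimers until the IKK kinase complex marks the IkB for destruction, after which the dimer enters the nucleus. Several of the genes are known targets of NF-kB themselves, NFKBIA and TNFAIP3 as feedback inhibitors and NFKB1, NFKB2, RELB and BCL3 as components. In tumour cells the pathway is known for inflammatory cytokine expression and for survival after DNA damage.

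Each array reported a summary intensity per probe, in arbitrary units, and a detection p against the negative controls of that array. Probes with a detection p of 0.01 or less count as detected, which held for 16712 probes in the adapted array and 17903 in the wild-type array. The dimmest detected probes read 158 in the adapted array and 152 in the wild-type array. Differences are log2 adapted minus log2 wild type after background correction and quantile normalisation, and intensities are given as deposited. The Ewing sarcoma markers CD99, FLI1, NKX2-2, STEAP1, LIPI, CCND1, HOXD13 and EWSR1 were all detected in both arrays. Of these 8, 2 were higher by 1.5-fold or more (LIPI 1.82, FLI1 0.81) and 1 lower (CCND1 -0.65). Over all genes with a detected probe 11.8% were higher and 12.3% lower. The summed intensity of the Ewing sarcoma markers was 21190 in the adapted array and 24786 in the wild-type array. Of 8 epithelial markers, only EPCAM was detected. Of 10 fibroblast markers 8 were detected, with 3 lower by 1.5-fold or more (THY1 -1.17, PDGFRB -1.16, COL1A1 -0.74) and 3 higher (DCN 1.97, COL3A1 0.92, LUM 0.78). The summed intensity of those 8 was 4279 in the adapted array and 3907 in the wild-type array. Among leukocyte markers PTPRC, CD3E and CSF1R were detected in neither array, and 2 of the 5 detected ones were lower by 1.5-fold or more in the adapted array, LCP1 at -2.49 and ITGB2 at -0.82. The summed intensity of those 5 was 1441 in the adapted array and 2070 in the wild-type array. The part of any of these sets of markers in the NF-kB results was not tested, and in bulk RNA fewer cells of a type and less RNA per cell cannot be told apart.

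The start regions of the members are shown because the lower genes below include several whose known control is by NF-kB itself. RefSeq windows on GRCh38.p14, from 250 bases before to 50 after a gene's start, were found for 8 of the 10 genes, with 13 windows in all. RELB and NFKBIE are named only. The NF-kB consensus site, a motif of 10 bases searched on both strands, occurred in 8 of these 13 windows and in 7 of the 8 genes, against 11.3% of all 35116 windows and 13.3% of all 27305 genes with a window. Matches may overlap, since a palindromic stretch can hold the motif on both strands. The looser motif GGGNNNNNCC, which contains the consensus, occurred in all 13 windows and in 58.7% of all windows. The 120 bases before the start are printed for NFKB2, NFKBIA, TNFAIP3 and NFKB1, 4 genes that were lower in adapted cells, and for RELA, which was at about the same level in both arrays. They lie at chr10:102394458-102394577 on the plus strand for NFKB2, chr14:35404750-35404869 on the minus strand for NFKBIA, chr6:137867139-137867258 on the plus strand for TNFAIP3, chr4:102501239-102501358 on the plus strand for NFKB1 and chr11:65663858-65663977 on the minus strand for RELA. Capitals mark matches to the consensus, 5′ to 3′ on the gene's own strand.
NFKB2: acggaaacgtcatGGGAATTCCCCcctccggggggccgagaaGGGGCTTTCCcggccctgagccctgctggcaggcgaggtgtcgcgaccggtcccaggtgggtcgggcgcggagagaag
NFKBIA: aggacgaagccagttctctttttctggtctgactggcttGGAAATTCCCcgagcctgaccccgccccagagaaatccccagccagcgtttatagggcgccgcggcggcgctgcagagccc
TNFAIP3: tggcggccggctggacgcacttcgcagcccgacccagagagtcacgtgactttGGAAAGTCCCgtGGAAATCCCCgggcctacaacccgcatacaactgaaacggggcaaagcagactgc
NFKB1: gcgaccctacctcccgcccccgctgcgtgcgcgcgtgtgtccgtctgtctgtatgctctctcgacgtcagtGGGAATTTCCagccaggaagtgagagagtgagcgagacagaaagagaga
RELA: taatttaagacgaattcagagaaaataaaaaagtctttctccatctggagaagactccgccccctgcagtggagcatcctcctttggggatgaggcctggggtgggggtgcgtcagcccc

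The NFKB2 window held an overlapping pair of matches starting 107 and 106 bases before the start and a further one at 78. NFKB2 had 3 windows, of which another held matches at 176 and 21 bases before its own start. NFKBIA had 1 match at 81 bases, NFKB1 had 1 at 49 bases in 1 of its 2 windows, and TNFAIP3 had matches at 67 and 55 bases. REL held an overlapping pair at 47 and 46 bases, and NFKBIB an overlapping pair at 28 and 27 bases in 1 of its 2 windows, with a further match after the start. The match of BCL3 began at the third base counted from its start, and its 120 bases before the start held none. BCL3, REL and NFKBIB are not printed above. BCL3 was also lower in adapted cells, with no match before its start. REL and NFKBIB had matches, but REL was detected in neither array and NFKBIB lay near background. The printed genes therefore do not stand for all members. Neither RELA window held the letters of the consensus. A match is a description of sequence, and binding was not measured.

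Of the DNA-binding subunits that can be processed from precursors, NFKB2 showed the larger difference. NFKB2, whose product serves the non-canonical branch of the pathway, had 3 probes. The brightest read 236.1 in the adapted array, against 683.6 in the wild-type array. The other detected probe read 212.0 in the adapted array, against 527.8 in the wild-type array. Both detected probes were thus clearly above the detection limit in each culture and lower in the adapted one. Their differences were -2.38 and -2.21, and -1.66 and -1.42 without background correction. The gap of 0.17 between them was smaller than the median gap of 0.22 between the 2 brightest probes of 2326 genes with such a pair, whose 95th percentile was 0.80. The remaining NFKB2 probe was detected in neither array, at 117.3 in the adapted and 123.2 in the wild-type array. NFKB1, the precursor of the canonical branch, read 624.7 in the adapted array, against 1241.2 in the wild-type array. Its difference was -1.38, or 2.61-fold lower, and 2.30-fold lower without background correction.

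The activating subunits went separate ways. RELB, the usual partner of processed NFKB2, read 182.4 in the adapted array, against 436.6 in the wild-type array. The adapted value lies not far above the dimmest detected probe of that array, and the size of the difference depended on how background was treated. It was -2.36, or 5.14-fold lower, in the normalised values and -1.36, or 2.56-fold lower, without background correction. In the values the authors processed it was -2.76. RELA, the main activating subunit of canonical NF-kB, read 287.4 in the adapted array, against 267.0 in the wild-type array. The RELA difference was 0.05, ranging over the processing settings from -0.01 with median scaling to 0.11 with no normalisation, so its sign is not settled. With no normalisation, a setting that also leaves background in, the median of all genes was itself 0.1. RELA ranked 6017 of 11296 genes counted from the lowest difference, close to the middle, whereas NFKB2 and RELB ranked 38 and 39. REL, a subunit known mainly from lymphoid cells, had 2 probes, and neither reached the detection limit in either array. One read 131.9 in the adapted array, against 151.3 in the wild-type array, and the other 150.3 in the adapted array, against 134.8 in the wild-type array. The REL probes pointed in opposite directions near background, and no difference is given for the gene.

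**Figure D1:**
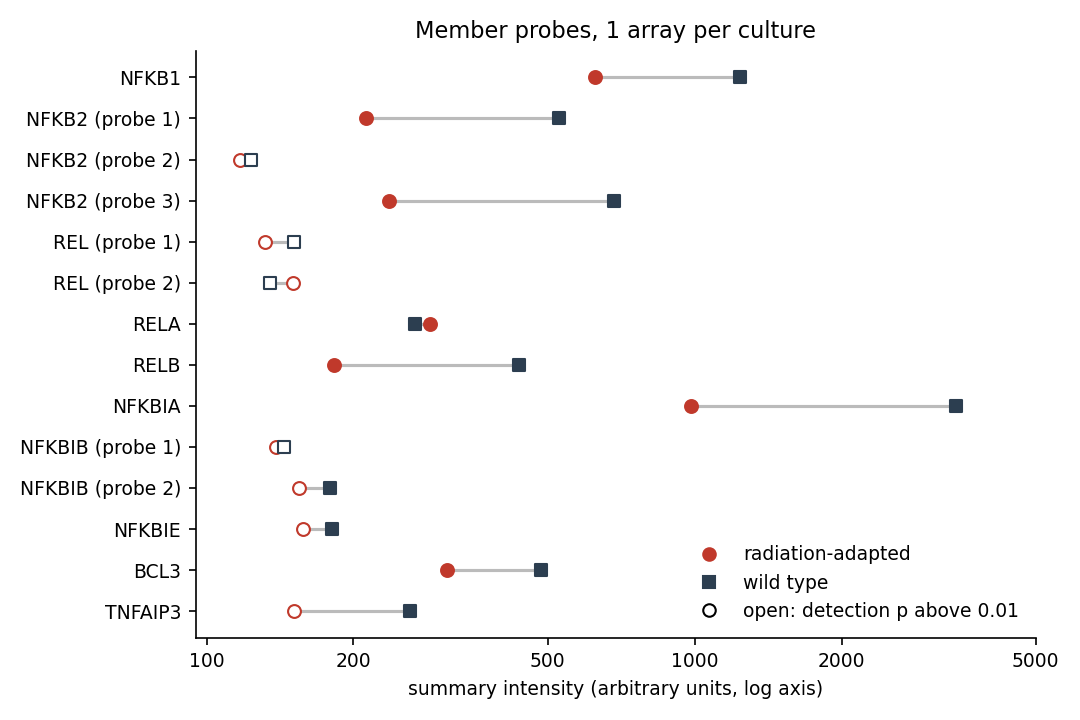
Summary intensity on a log axis for the 14 probes of the 10 genes, with circles for the radiation-adapted array, squares for the wild-type array and open symbols where the detection p was above 0.01. NFKB1, RELB, NFKBIA, BCL3 and both detected NFKB2 probes are lower in the adapted array and detected in both, the RELA points nearly coincide, and NFKBIB, NFKBIE and REL lie near background.

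Among the classical inhibitors, NFKBIA was far lower and the other pair could not be measured well. NFKBIA encodes IkB alpha, the inhibitor that NF-kB induces within a short feedback loop. It read 981.4 in the adapted array, against 3434.5 in the wild-type array. Its difference was -2.19, or 4.57-fold lower, and it was 4.13-fold lower without background correction and 3.50-fold lower with no normalisation at all. Among the 4 members furthest apart, it moved least with the treatment of background. NFKBIB encodes IkB beta, a slower-responding inhibitor. Its brighter probe read 154.4 in the adapted array, against 178.6 in the wild-type array, with a detection p of 0.0156 in the adapted array and 0.0026 in the wild-type array. NFKBIE, for IkB epsilon, read 157.9 in the adapted array, against 180.4 in the wild-type array, with a detection p of 0.0104 in the adapted array. Both genes were therefore detected in the wild-type array only, and their differences are bounds set by the dimmest detected probe of the adapted array. They were at least 1.48-fold lower for NFKBIB and at least 1.52-fold lower for NFKBIE, one just outside and one just inside the limit of 1.5-fold used for counting. Without background correction the bounds were 1.14-fold and 1.15-fold, so these values do not separate the cultures by much.

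The remaining members act outside the classical IkB group. BCL3, a nuclear IkB-like protein that binds processed NFKB1 and NFKB2 dimers and can help them activate genes, read 310.6 in the adapted array, against 484.8 in the wild-type array. Its difference was -1.10, or 2.14-fold lower, and 1.71-fold lower without background correction. TNFAIP3, the ubiquitin-editing enzyme that shuts off signalling upstream of IKK and is itself induced by NF-kB, read 150.7 in the adapted array, against 260.8 in the wild-type array. With a detection p of 0.0312 it was not well above background in the adapted array. TNFAIP3 was at least 3.44-fold lower there, a bound of 1.70-fold without background correction. At a detection limit of 0.05 it counted as detected in both arrays, and the measured difference was then -2.03.

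Across the members, 9 of 10 had a detected probe, and 7 of these were at least 1.5-fold lower and 0 higher in the adapted array. Over all 11296 genes with a detected probe, 12.3% were at least 1.5-fold lower and 11.8% higher. Without background correction 6 members were at least 1.5-fold lower and 0 higher, against 5.81% of all genes lower and 4.24% higher. The median difference was -1.38 for the 9 genes and 0.01 for all genes. NFKBIB, NFKBIE and TNFAIP3 entered through their wild-type value alone, so their direction was set by that. Of 985 genes detected in the wild-type array only, 20.8% had a bound of at least 1.5-fold. Members detected in both arrays numbered 6, and all of them except RELA, 5 genes, were lower by 2-fold or more. Of the 9857 genes detected in both arrays, 4.18% were lower by 2-fold or more and 2.83% higher. With genes at bounds included these shares were 4.43% and 2.76%. The members were chosen with these differences known, and nothing is read from the gap between these shares.

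**Figure D2:**
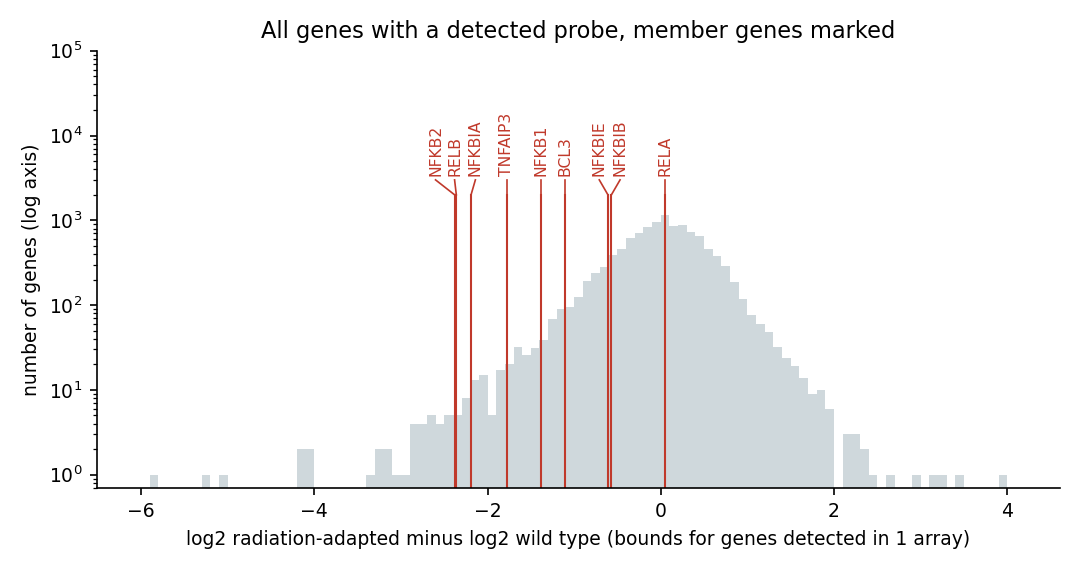
Histogram of the log2 difference, radiation-adapted minus wild type, over 11296 genes with a detected probe, with the number of genes on a log axis and red lines for the 9 measured members. NFKB2, RELB and NFKBIA stand in the lower tail, and RELA, at 0.05, stands at the centre.

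NFKB1, NFKB2, RELB, NFKBIA and BCL3, the 5 lower members detected in both arrays, had negative differences under all 9 processing settings, with differing sizes. NFKBIB, NFKBIE and TNFAIP3 are left out of this count, because detection in the wild-type array alone fixed their direction. NFKB1, RELB, NFKBIA and BCL3 had 1 probe each. A detection limit of 0.05, no detection filter and the mean over probes therefore could not change their values. All settings reuse the same pair of arrays, so a shared sign is no replicate check. With background left in, the differences of members dim in the adapted array were closer to 0. The bound of TNFAIP3 moved by 1.02 on the log2 scale, the difference of RELB by nearly as much and that of NFKB2 by 0.72, whereas NFKB1 moved by 0.18 and NFKBIA by 0.14. The order of the members by size therefore held only within a setting. NFKB2 and RELB were the lowest members in the main values, whereas NFKBIA was the lowest with an offset of 50, at -2.15 beside -2.10 for NFKB2 and -1.91 for RELB. NFKBIA was also the lowest without background correction, at -2.05.

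**Figure D3:**
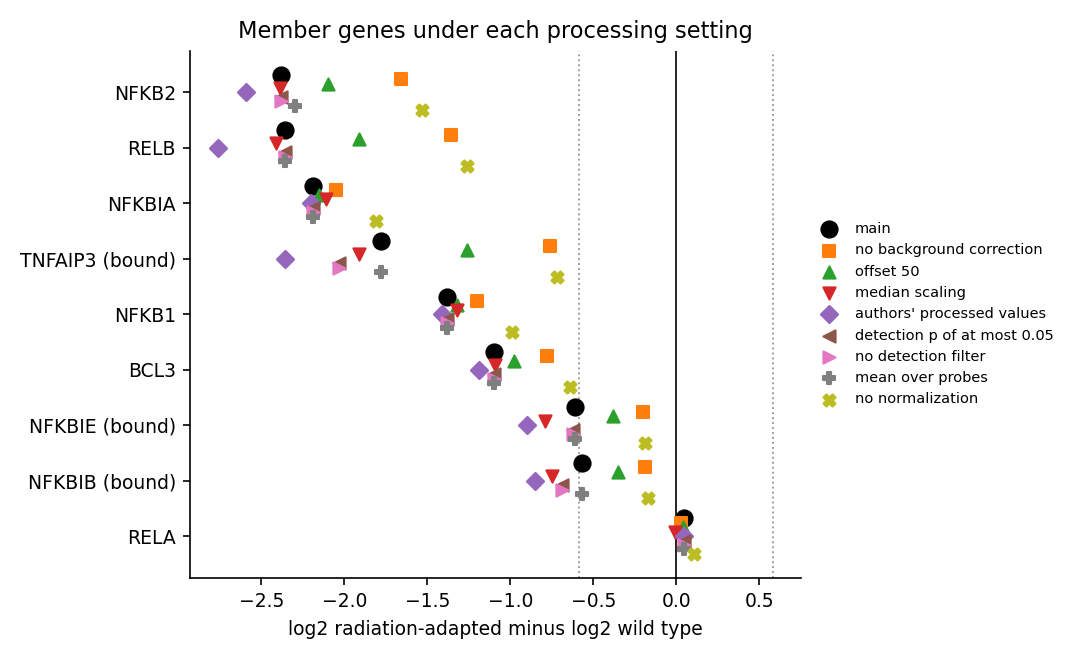
Log2 difference of each measured member under the main processing (black circles) and 8 alternatives (other symbols), with dotted lines at 1.5-fold and "bound" beside genes detected in the wild-type array only. NFKBIA and NFKB1 stay within narrow ranges, RELB and TNFAIP3 spread widely, and RELA stays around 0.

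The rest of the pathway was described in 6 lists ordered by role. Of 11 measured ligands and receptors upstream of NF-kB, 3 were lower by 1.5-fold or more and 0 higher, where 12.3% of all genes were lower and 11.8% higher. Of the 11, 4 were detected in the wild-type array only, a class in which 20.8% of genes were lower. The median was -0.36. The cytokine TNF, an inducer and a target of the pathway, read 124.0 in the adapted array, against 315.9 in the wild-type array, a bound of at least 4.79-fold, or 2.08-fold without background correction. The flagellin receptor TLR5 was lower at -1.32, with 189.1 in the adapted and 289.2 in the wild-type array, and at -0.67 without background correction. The receptor TNFRSF12A was at least 2.16-fold lower, though its bound without background correction was below 1.5-fold (-0.41). The TNF receptor TNFRSF1A read 630.4 in the adapted array and 621.8 in the wild-type array, a normalised difference of -0.20. With no normalisation, where the median of all genes was 0.1, its difference was 0.02, so its sign is not settled. The cytokine IL1B, detected in the wild-type array only, had a bound of -0.56. The ligand TNFSF13B, with 2 detected probes, went the other way at 0.55, the highest value of the list. It was more than 1.5-fold higher in the authors' values (0.61) and with the mean over its probes (0.85). Without background correction TNFSF13B was at 0.37.

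Among adaptors and kinases that connect receptors with IKK, 1 of the 20 measured genes was lower by 1.5-fold or more and 0 were higher, where 12.3% of all genes were lower and 11.8% higher. The median of the measured differences was -0.03, or -0.02 with bounds. The one lower gene was TICAM1, the adaptor of TLR3 and TLR4, at -0.71, and at -0.33 with the mean over its probes. IRAK2, an interleukin receptor kinase, had a bound of -0.55. TRAF3, which restrains the non-canonical kinase MAP3K14, read 193.8 in the adapted array and 169.1 in the wild-type array (0.48, or 0.18 without background correction). BIRC2, a ubiquitin ligase of the same complex, was at -0.46, or -0.72 with the mean over its probes. In that setting BIRC2, and not TICAM1, was the 1 gene lower by 1.5-fold or more. MAP3K14 was detected in neither array.

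All 9 genes of the IKK complex, the IKK-related kinases and the linear ubiquitin ligase LUBAC were detected in both arrays, and none was 1.5-fold apart in the main values. Their median was -0.09. The catalytic subunit CHUK read 364.9 in the adapted array and 365.3 in the wild-type array, a normalised difference of -0.20. The other catalytic subunit, IKBKB, read 432.8 in the adapted array and 320.8 in the wild-type array, a difference of 0.43, or 0.62 with the mean over its probes. The regulatory subunit IKBKG was at -0.09, and at 0.11 with no normalisation, where the median of all genes was 0.1, so its sign is not settled. IKBKE, an inducible kinase of the related group, had the lowest value, -0.55, or -0.24 without background correction. It was more than 1.5-fold lower with median scaling (-0.69) and in the authors' values (-0.72). TANK, a scaffold of the IKK-related kinases, stood at -0.42.

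Brakes on NF-kB outside the member list had 17 measured genes. Of these 4 were lower by 1.5-fold or more and 2 higher, where 12.3% of all genes were lower and 11.8% higher, so the count of higher genes is at the share of all genes. The median of the measured differences was -0.06, or -0.03 with bounds. The lower ones included NFKBIZ, a nuclear IkB protein, which read 133.3 in the adapted array, against 239.0 in the wild-type array, and was at least 2.91-fold lower, or 1.55-fold without background correction. The RNase ZC3H12A, which degrades cytokine transcripts, was at -1.48, but at -0.60 without background correction and, under 1.5-fold, at -0.57 with no normalisation. TNIP1, a partner of TNFAIP3, was at -1.12, or -0.68 without background correction, and the SUMO ligase PIAS1 at -0.88, or -0.67. PIAS1 was under 1.5-fold with no normalisation, at -0.52. The pseudokinase TRIB3, known also as a stress-response gene, was higher at 1.05, with 3145.2 in the adapted and 1330.5 in the wild-type array. N4BP1 was higher at 0.62, and at 0.28 without background correction.

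Genes for IkB turnover and nuclear cofactors had 2 of 16 measured members higher by 1.5-fold or more and 0 lower. That count of higher genes is close to the 11.8% of all genes that were higher, and 12.3% of all genes were lower. Their median was 0.14. These were the acetyltransferase CREBBP (0.66) and the cullin CUL1 (0.60), a scaffold of the ligase that marks IkB for the proteasome. Both were just under 1.5-fold without background correction, at 0.54 and 0.52, and CREBBP was at 0.35 with the mean over its probes.

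The 40 target genes listed beside the members had 23 measured genes, of which 14 were lower by 1.5-fold or more and 0 higher, where 12.3% of all genes were lower and 11.8% higher. The other 9 were within 1.5-fold, among them SOD2 (0.22), CFLAR (0.22) and BCL2L1 (0.09). Of the 23, 11 entered through the wild-type array alone, a class in which 20.8% of genes were lower. The median of all 23 was -1.05, or -0.69 with those 11 set at their bound. At the low end were the chemokines CCL20 (-5.89) and CXCL8 (at least 17.9-fold lower by its brightest probe), the cytokine IL32 (-5.09) and UBD (at least 17.5-fold lower), a ubiquitin-like protein. CXCL8 and IL32 had 2 detected probes each. With the mean over probes IL32 was at -4.25 and the bound of CXCL8 at -3.43. Without background correction the differences were -4.71 for CCL20 and -3.73 for IL32, and the bounds were 5.82-fold for CXCL8 and 5.70-fold for UBD. The NF-kB targets and the members were known to be low in this pair of arrays when the list was written, so the count adds no independent evidence.

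**Figure D4:**
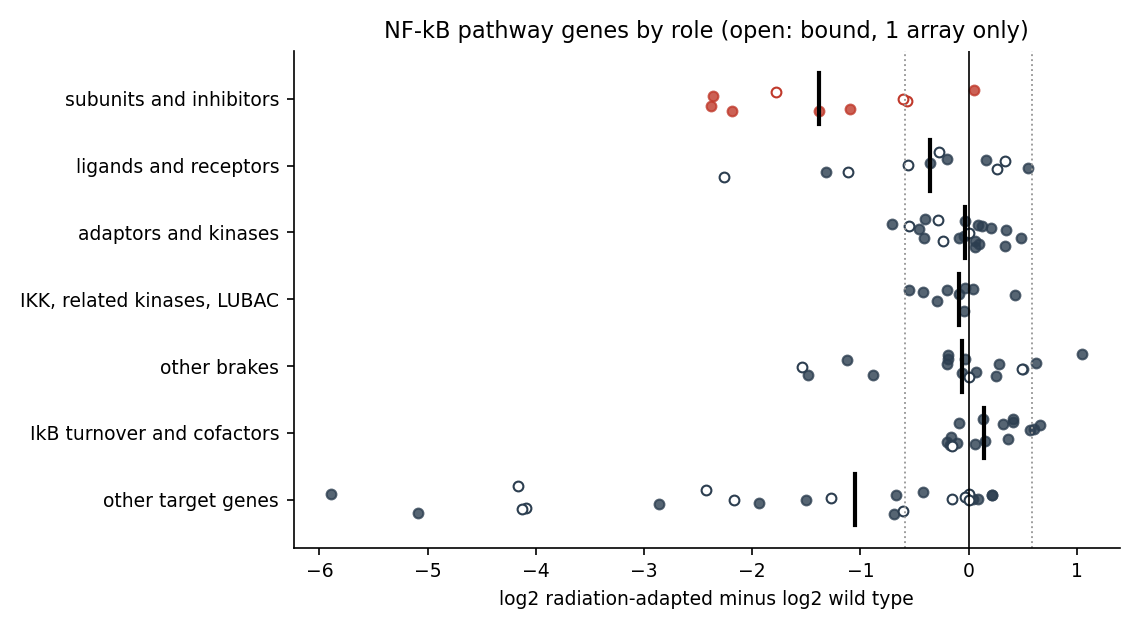
Log2 difference, radiation-adapted minus wild type, for the measured genes of 7 groups of the NF-kB pathway, the members in red, with open circles for bounds, black bars for the median of measured differences and dotted lines at 1.5-fold. The 9 genes of the IKK and LUBAC row all lie inside the dotted lines, while 7 of the 9 members and 14 of the 23 other target genes lie below the left one.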

How the data were processed

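Total RNA of 1 radiation-adapted and 1 wild-type A4573 culture was labelled with the Illumina TotalPrep kit, per the labels' protocols. Per the file headers, the deposited summary intensity is each probe's average signal with no normalization, and the lowest intensities of 102 in the adapted and 100 in the wild-type array show that background was left in. The detection p-value deposited beside it compares a probe with the negative controls of its array. The authors' second table holds a processed intensity on a linear scale, with 27.7% of values below 0 and a median of 10.6 in both columns. The rank of probes in each column was that of the array's own summary intensity (Spearman rho 1.00 across probes, 0.861 with the other array). The sources used here name neither the scanner software nor the authors' processing steps.

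Of 47323 probes, 30113 had 1 gene symbol in the platform annotation, 8 had several and 17202 were unnamed. Symbols were updated by gene ID through the RefSeq table of GRCh38.p14, which matched 30074 probes. Background correction (normexp from the detection p, offset 16), quantile normalisation and log2 used neqc of limma 3.58.1 in R 4.3.3. Later steps ran in Python 3.11.15 with matplotlib 3.10.9, pandas 2.3.3 and numpy 2.4.6. Genes needed 1 or more detected probes in either array. Of 11296 such genes, 9857 were detected in both arrays, 454 in the adapted array only and 985 in the wild-type array only. Each gene was represented by its detected probe of highest mean log2 value. For genes seen in 1 array alone a bound was used, taken against the lowest detected value of the dim array or the probe's own value there, whichever was higher. Medians of the members and lists were taken over measured differences unless bounds are named. Genes were counted at 1.5-fold and 2-fold, with no test, since each group holds 1 array. The number of arrays limits the precision. Quantile normalisation hides differences in total RNA, and differences of dim probes shrink with the offset.

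The members and lists were chosen with earlier results of these data known. All members are named, and from each other list up to 4 genes with the largest differences, plus genes needed to explain a count and some receptor, adaptor, IKK and target genes chosen after their values were seen. Listed genes without a named probe were not analysed here. The alternatives were no background correction, an offset of 50, median scaling and the authors' processed values with a floor of 16. Others were a detection limit of 0.05, no detection filter and the mean over probes. Unnormalised intensities, which also keep the background, were added after seeing the data. The steps were tested on simulated data, with changes planted only in genes well above background. That test does not cover changes in genes as dim as NFKBIB and NFKBIE, or variation between cultures.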

Additional observations from a re-analysis of the deposited data

How the results depend on the processing

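The number of members at least 1.5-fold lower was between 6 and 8 under every alternative, against 7, and the number higher was 0 throughout. The median of the members was -0.83 without background correction and -0.79 with no normalisation, against -1.38. The setting with no normalisation also leaves background in, so its shifts cannot be assigned to normalisation alone. With no normalisation the median of all genes was 0.1, against 0.01. The counts for the other lists hold genes 1.5-fold apart in either direction. For ligands and receptors the count was 5, against 3, in the authors' values, with a detection limit of 0.05 and with no detection filter. It was 4 with median scaling and with the mean over probes, and 2 without background correction and with no normalisation. TNFSF13B was counted as a higher gene in the authors' values (0.61) and with the mean over probes (0.85). For adaptors and kinases the count, 1, became 0 without background correction and with no normalisation. It was 2 with median scaling, 3 in the authors' values, 4 with the limit of 0.05 and 5 with no filter. In the authors' values TRAF3 was counted as a higher gene, at 0.67. For IKK and LUBAC genes the count became 1, against 0, with median scaling, in the authors' values and with the mean over probes. That gene was IKBKE, lower, with median scaling (-0.69) and in the authors' values (-0.72). With the mean over probes it was IKBKB, higher, at 0.62. For other brakes the count was 3 with no normalisation, against 6. It was 7 in the authors' values, with the limit of 0.05 and with no filter. For turnover genes and cofactors it was 0 without background correction and 1 at an offset of 50, against 2. It was 3 with median scaling, with no detection filter and with no normalisation. NFKBIE was under 1.5-fold without background correction, at an offset of 50 and with no normalisation. NFKBIB passed 1.5-fold with median scaling, in the authors' values, with the limit of 0.05 and with no filter. The cause of these shifts was not tested. REL gave a difference, 0.49, only with the limit of 0.05 or no filter. No paired analysis was possible because each group holds 1 array. Intensity near background limits NFKBIB, NFKBIE, REL and the size of the RELB and TNFAIP3 differences.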

Other observations

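The NF-kB consensus site was also counted over all genes outside the members that had a RefSeq start window and a detected probe. Of 1568 genes with a match, 15.9% were at least 1.5-fold lower in the adapted array and 10.4% higher, with a median difference of -0.05. Of 7524 genes without a match, 10.9% were lower and 12.0% higher, with a median of 0.03. At 2-fold, 6.12% of the genes with a match and 3.68% of those without were lower, and 2.10% and 2.66% were higher. Genes with several windows have more chance of a match. Among genes with 1 window, 15.6% of 793 with a match and 10.4% of 5621 without were lower, and 8.70% and 12.1% were higher. These shares describe 1 pair of arrays, were looked at after the members' windows had been seen, and were not tested. The base composition and expression level of the groups were not matched.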
